A study of Mus musculus with 36 samples.

Results

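The Schlafen family is a mouse gene family named for its effect on lymphocyte growth. Here it comprises 7 genes, Slfn1, Slfn2, Slfn3, Slfn4, Slfn5, Slfn8 and Slfn9, out of 55421 genes in the deposited table. The rows were chosen by matching each mouse Ensembl identifier to its gene symbol. The family as a set was selected on the response of Slfn4 to stimulation in vehicle-treated T41B slices of these same data, so that comparison is given as a description, and so is the T41B minus WT comparison of stimulated vehicle-treated slices, which uses the same stimulated samples. All 7 were among the 19478 genes kept by the filter on low counts. Slfn1, Slfn3 and Slfn4 held at most 5 counts in every sham sample, so they were kept through stimulated slices and would not have been kept without a difference. Their responses to stimulation are therefore given as values with no test, and so is the genotype difference of Slfn1 in stimulated slices, since it was kept through T41B slices alone. Members are counted among Slfn2, Slfn5, Slfn8 and Slfn9, which held over 3 counts in every sample.

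RNA came from slices of the right hippocampus of mice aged 16 months. Wild-type (WT) mice were C57BL/6. T41B mice were Thy1-hAPP Lond/Swe (line 41) animals, in which a Thy1 promoter cassette, active mainly in neurons, drives human APP with the London and Swedish mutations. All mice were dosed by oral gavage for 3 months, from 13 to 16 months of age, with vehicle (VEH) or BD10-2, a small molecule that acts on the neurotrophin receptors TrkB and TrkC. One slice of a mouse received theta-burst stimulation in 3 trains of 10 bursts, the bursts 200 ms apart and each made of 4 stimuli given at 100 Hz, after which it was flash frozen. The sham slice went through the same procedure for the same time without the bursts. There were 4 mice in each of the WT VEH sham, WT VEH stimulated, T41B VEH sham and T41B VEH stimulated groups. There were 3 in each of the WT BD10-2 groups and 5 in each of the T41B BD10-2 groups. Both slices were sequenced for 14 of the 18 mice.

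The 36 libraries held 11597555 to 28125842 counts each, with a median of 18082415, and 4 pairs of libraries with the same mouse and condition were added to give 32 samples. Thy1 matched the genotype labels, at 253 to 403 CPM (counts scaled to library size) in WT and 1030 to 2510 CPM in T41B samples, without overlap. Summed neuronal markers lay between 4850 and 7670 CPM and summed hippocampal subfield markers between 894 and 1840 CPM, with no listed marker at 0 in any group. Markers of choroid plexus, the tissue that makes cerebrospinal fluid, were uneven: 9 of 9 were higher in stimulated than in sham WT VEH slices, with summed levels of 14.4 to 1220 CPM against 16.3 to 21.5 CPM. The high sums were those of Mouse1509 and Mouse1513, and in T41B VEH mice both slices of Mouse1551 and Mouse1553 held 115 to 533 CPM. The 10 neutrophil markers summed to 1.05 to 20.5 CPM, nearly all of it from Csf3r, the receptor of granulocyte colony-stimulating factor, which microglia also express. Csf3r was at 13.7 CPM in T41B and 4.12 CPM in WT VEH sham slices and lower after stimulation, and 2 to 6 of the 10 were at 0 in each group. The 8 blood monocyte markers summed to 23 to 55.8 CPM, of which Vcan, which is not limited to monocytes, had group means of 29.8 to 48.9 CPM, while Chil3 was at 0 in 7 of 8 groups. Their part in the results was not tested. The stimulated sample of Mouse1592 (T41B BD10-2) was the lowest of its group for every member, and its 2 libraries differed, with Thy1 at 918 and 1940 CPM and Slfn8 at 8.56 and 29 CPM. Other same-label pairs also differed for some members. Slfn9 was at 2.44 and 0.746 CPM in the sham slice of Mouse1557 (T41B BD10-2). Slfn4 was at 0.334 and 1.7 CPM in the stimulated slice of Mouse1586 (WT BD10-2). Thy1 was closer there, at 1080 and 1020 CPM in Mouse1557 and at 348 and 315 CPM in Mouse1586. Tests of the members that use the stimulated sample of Mouse1592 are also given without the mouse. It was singled out on these member values, and leaving out the lowest sample raises the level of its group by construction. The values without it are therefore a description.

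Schlafen proteins share an N-terminal core domain. Slfn1 and Slfn2 encode the short forms, Slfn3 and Slfn4 the intermediate forms, and Slfn5, Slfn8 and Slfn9 the long forms, which add a helicase-like C-terminal part. Many members are induced by type I interferon in macrophages and lymphocytes, in which signalling from the receptor Ifnar acts on target promoters that hold the interferon-stimulated response element (ISRE). Several Schlafen proteins bind or cut transfer RNA. In the brain, transcripts of this kind are known mainly from microglia, the resident macrophages.

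The members lie in a cluster on chromosome 11 (GRCm38), in the order Slfn5, Slfn9, Slfn8, the pseudogene Slfn10-ps, Slfn2, Slfn1, Slfn4, Slfn3 and Slfn14. Slfn5 spans 82951349 to 82964840 on the plus strand, Slfn9 spans 82978390 to 82991830 on the minus strand and Slfn8 spans 83002158 to 83020810 on the minus strand. Slfn2 spans 83065112 to 83070678, Slfn1 spans 83116849 to 83122670, Slfn4 spans 83175186 to 83190216 and Slfn3 spans 83191330 to 83215154, all on the plus strand. The 160 bases before the RefSeq start site (GRCm38.p6), which for Slfn5 lies inside the span above, are shown for 5 members. Capitals in the long-form genes mark a match to the ISRE (TTTCNNTTTC, either strand), and in Slfn2 and Slfn4 they mark ACTTCCTG, which on the other strand holds the GGAA core bound by ETS-family factors such as the myeloid factor PU.1.
Slfn5 (+ strand, chr11:82951942-82952101): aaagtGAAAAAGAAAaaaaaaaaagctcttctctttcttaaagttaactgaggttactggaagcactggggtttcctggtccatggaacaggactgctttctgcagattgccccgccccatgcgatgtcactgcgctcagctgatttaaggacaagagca
Slfn8 (- strand, chr11:83020811-83020970): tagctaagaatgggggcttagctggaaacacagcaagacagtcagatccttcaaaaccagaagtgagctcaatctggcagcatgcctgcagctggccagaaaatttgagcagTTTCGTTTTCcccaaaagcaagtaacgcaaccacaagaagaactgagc
Slfn9 (- strand, chr11:82991831-82991990): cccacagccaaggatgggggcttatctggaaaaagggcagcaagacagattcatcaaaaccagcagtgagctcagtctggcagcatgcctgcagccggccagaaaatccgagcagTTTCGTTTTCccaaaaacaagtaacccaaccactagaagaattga
Slfn2 (+ strand, chr11:83064952-83065111): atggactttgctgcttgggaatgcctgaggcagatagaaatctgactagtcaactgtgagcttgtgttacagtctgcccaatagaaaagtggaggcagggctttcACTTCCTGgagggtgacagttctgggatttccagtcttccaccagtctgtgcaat
Slfn4 (+ strand, chr11:83175026-83175185): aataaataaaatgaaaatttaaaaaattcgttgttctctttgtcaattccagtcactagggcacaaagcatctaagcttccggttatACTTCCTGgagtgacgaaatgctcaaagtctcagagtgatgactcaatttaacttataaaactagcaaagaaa

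In the 250 bases before the start, the ISRE letters were found in Slfn5, Slfn8 and Slfn9, and in 3.0% of 32851 RefSeq mouse promoters of the same length. Slfn14, a gene of the same cluster outside the 7, held no match to these letters. Counted from the start site, the match spans -155 to -146 in Slfn5 (on the other strand), -45 to -36 in Slfn9 and -48 to -39 for the Slfn8 start shown. Slfn8 has another RefSeq start, from which the same match lies at -136 to -127. ACTTCCTG was found in Slfn1, Slfn2, Slfn3 and Slfn4, between -74 and -35, and in 2.7% of all promoters. That motif was chosen after these sequences were seen, so its share is a description. A kappaB site by its usual name was found in Slfn1 and Slfn9, against 7.3% of promoters, and the STAT motif TTCNNNGAA was found in none of the 7, against 7.0%. Both strands were searched, a match is not evidence of binding, and no match says only that these letters are not in the window.

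Reads of near-identical relatives can be divided between genes, and RSEM then gives a count that is not whole. Such counts were found in 61.1% of the libraries for Slfn8, in 52.8% for Slfn9 and in 37.1% of the libraries with a count for Slfn3. The share was 22.7% for Slfn4, 8.3% for Slfn2 and 5.6% for Slfn5, and Slfn1 had none. The long forms Slfn8 and Slfn9 share 389 runs of 50 bases with each other, which is 9.3% of those of Slfn8 and 6.5% of those of Slfn9, and each shares more with the pseudogene Slfn10-ps (10.1% and 8.1%). Slfn3 and Slfn4 share 252 such runs, 7.4% and 6.3% of their own. Values for these 4 genes are therefore uncertain as to which copy gave some of the reads, while Slfn1 and Slfn2 share 0.6% and 4.3% of their runs with any other gene. Slfn5 shares 7.4% of its runs with its antisense gene Slfn5os, which held 0 to 3 counts per sample.

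Compared per kilobase (kb) of exon, Slfn2 was the most abundant member in every group. In WT VEH sham slices it was at 1.28 ± 0.57 CPM per kb (SD, n = 4), followed by Slfn5 at 0.631 ± 0.139 and Slfn8 at 0.229 ± 0.101 CPM per kb. The values of Slfn5 overlapped those of Slfn2 there, and Slfn9 (0.117 ± 0.074 CPM per kb) overlapped Slfn8 and Slfn3, while Slfn3, Slfn1 and Slfn4 had means of 0.055 CPM per kb or less. In T41B VEH stimulated slices the level was 30.9 ± 6.98 CPM per kb for Slfn2, 14.5 ± 5.11 for Slfn5 and 13.6 ± 3.12 for Slfn8, and the last 2 did not differ beyond their spread. Slfn9 (3.8 ± 0.644 CPM per kb), Slfn4 (2.16 ± 1.47), Slfn3 (1.23 ± 0.631) and Slfn1 (0.374 ± 0.16) followed, and Slfn4 overlapped both of its neighbours in that order. In WT VEH stimulated slices the order was Slfn2 (11.4 ± 1.54 CPM per kb), Slfn8 (3.27 ± 0.317), Slfn5 (2.74, with single values of 1.19 to 3.81), Slfn9 (0.976 ± 0.128), Slfn3 (0.407 ± 0.369), Slfn4 (0.23 ± 0.217) and Slfn1, and each of these overlapped the next except Slfn2 with Slfn8 and Slfn5 with Slfn9. In T41B BD10-2 stimulated slices Slfn2 was at 37.4 ± 13.5, Slfn5 at 17.4 ± 11.1 and Slfn8 at 16.8 ± 8 CPM per kb (n = 5). Without Mouse1592 the same means were 41.9 ± 10.4, 21.1 ± 8.44 and 19.8 ± 4.99 CPM per kb (n = 4). All values that follow are CPM or log2 fold changes of one gene between groups.

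**Figure D1:**
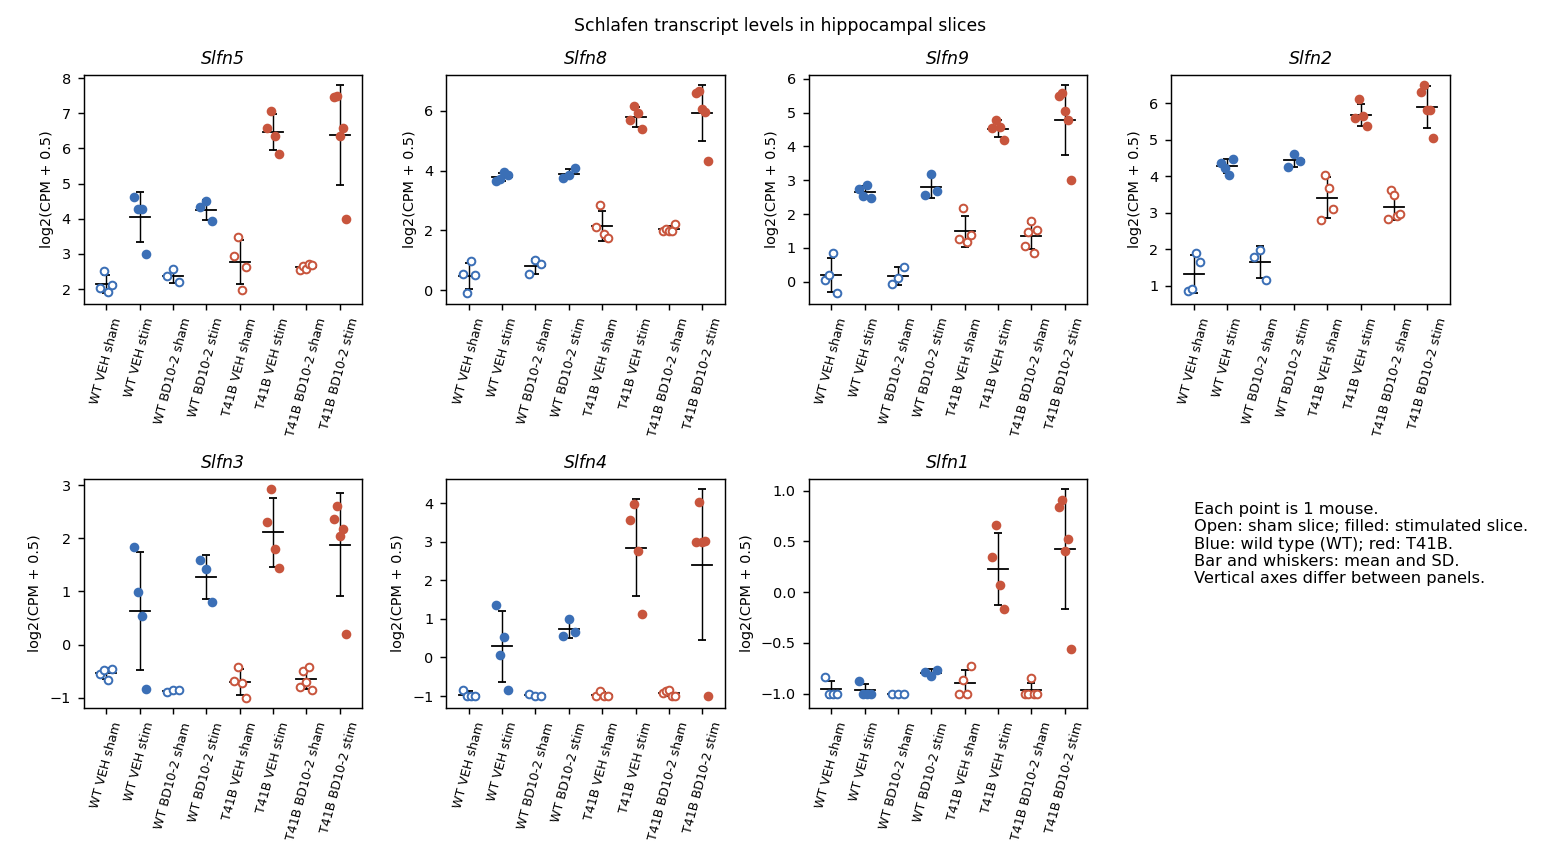
Level of each member as log2(CPM + 0.5) (vertical axes, which differ between panels) in every sample of the 8 groups (horizontal axis); each point is 1 mouse, open for sham and filled for stimulated slices, blue for WT and red for T41B, with the mean and SD. The means of Slfn2, Slfn8 and Slfn9 form 4 steps (WT sham, T41B sham, WT stimulated, T41B stimulated), while Slfn5 has sham means of 3.99 to 6.76 CPM and Slfn1 leaves the bottom of its axis mainly in stimulated T41B slices.

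Theta-burst and sham slices were compared within each genotype and treatment with edgeR's quasi-likelihood test, with p-values adjusted over all genes. Of the 4 members measured in every sample, 4 were higher in stimulated WT VEH slices, beside 8.21% of all genes tested. With BD10-2, 4 of 4 were higher in WT slices (background 6.29%) and 4 of 4 in T41B slices (background 13.3%). In T41B VEH slices, the comparison behind the choice of the family, 4 of 4 were past the threshold (background 11.7%), from which nothing is read. The log2 fold changes of the 4 had medians of 3.1 (range 2.13 to 3.81) in WT VEH, 3.2 (1.99 to 3.58) in WT BD10-2 and 4.07 (2.84 to 4.27) in T41B BD10-2 mice, where the medians of all genes were -0.01, -0.01 and -0.04.

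Slfn2, a short form that in T cells keeps cells quiescent and shields transfer RNA from cleavage, was at 1.3, 1.37, 3.21 and 2.66 CPM in the 4 WT VEH sham slices. In the stimulated slices of the same mice it was at 20.1, 18.3, 15.8 and 21.8 CPM. The lowest stimulated value was well above the highest sham value, and the log2 fold change was 3.14 (SE 0.33, adjusted p = 6.87e-08). In WT BD10-2 mice it went from 1.73 to 3.45 CPM in sham to 18.7 to 23.8 CPM in stimulated slices (2.93, SE 0.35, adjusted p = 1.05e-06). In T41B BD10-2 mice the sham slices held 6.67, 11.7, 10.7, 7.09 and 7.26 CPM and the stimulated slices 78.9, 89.6, 55.4, 55.1 and 32.5 CPM, the last that of Mouse1592. The groups did not overlap, and the log2 fold change was 2.84 (SE 0.26, adjusted p = 8.58e-10), or 2.95 without that mouse.

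Slfn8, a long form that acts on T-cell growth, rose from 0.949, 0.432, 1.45 and 0.924 CPM in WT VEH sham slices to 12.1, 12.6, 15 and 13.8 CPM in stimulated slices. The 4 stimulated values lay within a narrow range, with Mouse1524 among them, and the log2 fold change was 3.81 (SE 0.41, adjusted p = 7.83e-08). It was 3.58 (SE 0.42) in WT BD10-2 and 4.24 (SE 0.30) in T41B BD10-2 slices, with adjusted p of 8.6e-07 and 1.55e-11, and the latter was 4.53 without Mouse1592. Slfn9, its neighbour and close copy, showed the same pattern at a lower level. In WT VEH mice it rose from 0.534, 0.648, 1.32 and 0.289 CPM to 6.16, 5.29, 6.74 and 5.1 CPM (3.07, SE 0.47, adjusted p = 2.79e-05). Its log2 fold change was 3.47 (SE 0.51) in WT BD10-2 and 3.89 (SE 0.35) in T41B BD10-2 slices (4.2 without Mouse1592), all past the threshold. The pseudogene Slfn10-ps, to which reads of both can be divided and which the filter also kept through stimulated slices, had means of 0.743 CPM in stimulated and 0.157 CPM in sham WT VEH slices.

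Slfn5, a long form known as an interferon-induced nuclear protein that restrains transcription, was at 3.56, 5.26, 3.27 and 3.87 CPM in WT VEH sham slices and at 24.1, 18.8, 18.9 and 7.5 CPM in stimulated slices. The 7.5 CPM of Mouse1524 was low beside the other 3, yet above every sham value, and the log2 fold change was 2.13 (SE 0.49, adjusted p = 0.0031). In WT BD10-2 mice Slfn5 rose from 4.64, 5.48 and 4.06 CPM to 19.6, 22.1 and 14.9 CPM, a log2 fold change of 1.99 (SE 0.53, adjusted p = 0.0145). That call was lost without Mouse1565, Mouse1571 or Mouse1590, with adjusted p of 0.123, 0.0913 and 0.0763. In T41B BD10-2 mice it rose from 5.36, 5.81, 5.49, 6.02 and 5.88 CPM to 177, 181, 80.5, 94.3 and 15.5 CPM, the last that of Mouse1592. Here 4 of 5 stimulated slices lay far above the WT range and 1 within it, and the log2 fold change was 4.27 (SE 0.43, adjusted p = 6.58e-09), or 4.56 without Mouse1592.

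Slfn3, an intermediate form linked to differentiation of gut epithelium and T cells, was barely detected in sham slices, at 0.126 to 0.231 CPM in WT VEH mice. In the stimulated slices it was at 3.06, 1.49, 0.951 and 0.0615 CPM, so that Mouse1524 lay below every sham value and the groups overlapped. In WT BD10-2 mice Slfn3 was at 0.0394, 0.0522 and 0.0541 CPM in sham and at 2.51, 2.17 and 1.24 CPM in stimulated slices. In T41B BD10-2 mice it was at 0.053 to 0.247 CPM in sham and at 4.68, 5.63, 3.65, 4.02 and 0.65 CPM in stimulated slices, the last that of Mouse1592. The groups did not overlap under BD10-2 in either genotype. The estimated log2 differences in these 3 comparisons were 2.88 (SE 0.75), 5.25 (SE 0.95) and 4.81 (SE 0.65), with 12, 4 and 13 counts in all over the sham slices.

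Slfn4, an intermediate form of myeloid cells that falls as macrophages mature and rises on their activation, held 0 or 1 count in each of the 16 sham samples. In stimulated WT VEH slices it was at 2.08, 0.551, 0.951 and 0.0615 CPM, the last again Mouse1524, with 78 counts against 1 over the groups. The ratio was 63, with a counting interval of 11 to 2520. In WT BD10-2 slices it was at 0.973, 1.49 and 1.09 CPM, with 85 counts against 1 in sham (ratio 101, interval 17.6 to 4020). In T41B BD10-2 slices it was at 7.42, 15.7, 7.48 and 7.6 CPM in 4 mice and at 0 in both libraries of Mouse1592 (659 counts against 3, ratio 226, interval 76.9 to 1100). These intervals cover counting error only. As a description, T41B VEH slices held 11.2, 15.1, 6.22 and 1.69 CPM after stimulation, or 652 counts against 1.

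Slfn1, the other short form, which slows the growth of thymocytes, was nearly undetected in WT slices. It held 1 count in WT VEH sham and 1 in stimulated slices, which is below any comparison. In WT BD10-2 slices it held 6 counts after stimulation and 0 in sham, at least 2.37-fold higher against a floor of 3 counts over the group. In T41B BD10-2 mice it was at 1.29, 1.38, 0.825, 0.942 and 0.177 CPM in stimulated slices and had 1 count over the 5 sham slices. The ratio was 86.3, with a counting interval of 15.1 to 3450, a description of a gene kept through these slices.

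Within mice, Slfn2, Slfn5, Slfn8 and Slfn9 were each higher in the stimulated slice of 14 of 14 animals. The median difference in log2(CPM + 0.5) was 2.66 for Slfn2, 3.45 for Slfn8, 2.82 for Slfn9 and 2.91 for Slfn5. The smallest difference was 1.94 for Slfn2 but 0.87 for Slfn5, in Mouse1524. Slfn3 and Slfn4 were higher in 13 of 14, the exceptions being Mouse1524 for Slfn3 and Mouse1592 for Slfn4. Slfn1 was higher in 10 of 14. The 14 pairs include the 4 vehicle-treated T41B mice on which the family was chosen.

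**Figure D2:**
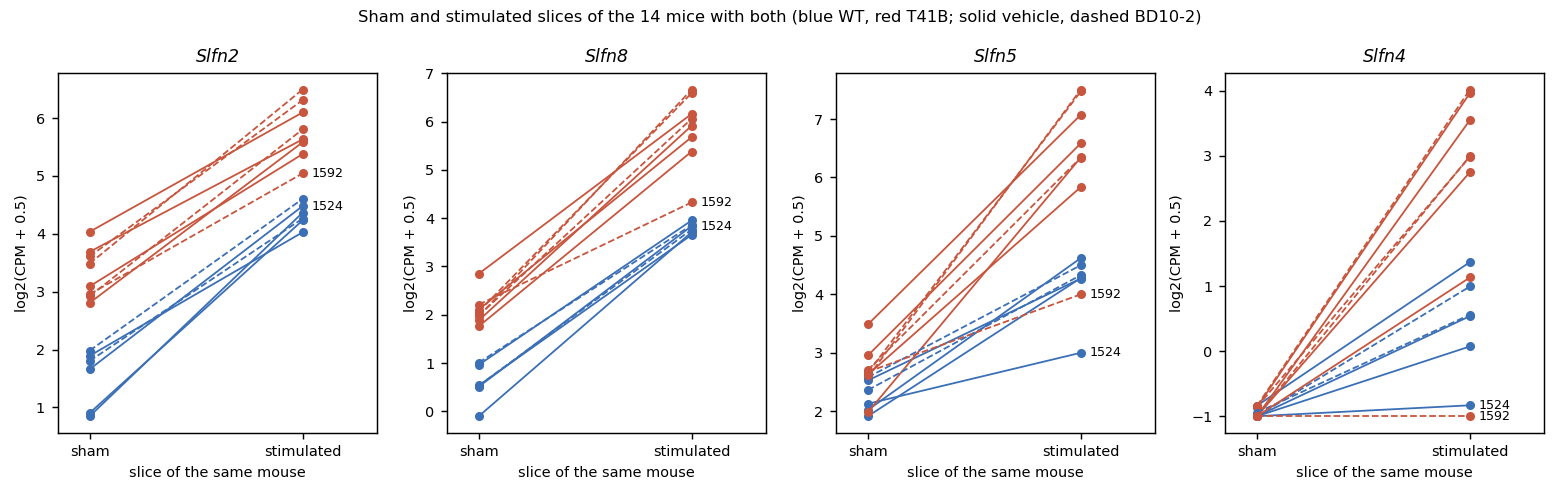
Log2(CPM + 0.5) of 4 members (vertical axes) in the sham and the stimulated slice (horizontal axis) of the 14 mice with both; each line is 1 mouse, blue for WT and red for T41B, solid for vehicle and dashed for BD10-2. Every line rises for Slfn2, Slfn8 and Slfn5, whereas Mouse1524 and Mouse1592, marked by number, stay low for Slfn5 and Slfn4 and only Mouse1592 is low for Slfn8.

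Mouse1524 and Mouse1592 were low for some response genes and not for others. In the stimulated slice of Mouse1524, Tnf was at 241 CPM and Ifnb1, the gene of interferon beta, at 5.16 CPM, the highest values of the 4 WT VEH mice (82.5 to 165 and 1.12 to 2.64 CPM in the other 3). Its 30 listed interferon-stimulated genes summed to 864 CPM, where the other 3 held 955 to 1260 CPM. In the stimulated slice of Mouse1592, Tnf was at 263 CPM, within the 219 to 320 CPM of the other 4 T41B BD10-2 mice, and Ifnb1 at 3.81 CPM, where they held 4.42 to 7.77 CPM. Its interferon-stimulated genes summed to 1130 CPM against 4350 to 7360 CPM, and its Toll-like receptor and NF-kappaB genes to 2900 CPM against 3990 to 6490 CPM. Whether these values account for the low Slfn3, Slfn4 and Slfn5 was not tested.

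The genotype comparisons asked how T41B and WT mice differ. In sham slices, 3 of the 4 members measured in every sample were higher in T41B mice under vehicle, where 5% of all genes tested were, and the same 3 under BD10-2 (background 4.31%): Slfn2, Slfn8 and Slfn9. In stimulated slices 4 of 4 were higher under BD10-2 (background 8.19%). Under vehicle 4 of 4 were past the threshold (background 4.74%), from which nothing is read, since these T41B slices chose the family. No member was called lower in T41B mice. In bulk RNA, more cells of a type and more RNA per cell cannot be told apart. By the labels, batch E held WT mice only and batches G and H held T41B mice only, so genotype and batch cannot be fully told apart. The sham and stimulated comparisons of a treatment use slices of largely the same mice, and stimulation and genotype comparisons share groups, so they are not independent.

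In VEH sham slices, Slfn2 was at 6.5, 15.9, 12.4 and 8.03 CPM in T41B against 1.3 to 3.21 CPM in WT mice (2.32, SE 0.34, adjusted p = 3.07e-05). Slfn8 was at 3.81, 6.71, 3.19 and 2.89 CPM against 0.432 to 1.45 CPM (2.13, SE 0.44, adjusted p = 0.00239). Slfn9 was at 1.88, 4, 1.75 and 2.1 CPM against 0.289 to 1.32 CPM (1.82, SE 0.51, adjusted p = 0.0287). None of the 3 overlapped between genotypes, and the share of all genes without overlap was not counted. The calls of Slfn8 and Slfn9 were lost with batch as a covariate, with log2 fold changes of 1.69 and 1.58 and adjusted p of 0.0543 and 0.178. That of Slfn9 was also lost without Mouse1509, Mouse1513, Mouse1524 or Mouse1551, at adjusted p of 0.11, 0.0814, 0.085 and 0.171, with only the first library of each same-label pair (0.0732) and with only these 2 groups in the fit (0.057). Slfn5 was not called, at 7.25, 10.7, 3.45 and 5.67 CPM against 3.27 to 5.26 CPM (0.77, SE 0.51, adjusted p = 0.384).

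With BD10-2, the sham values of Slfn2 were 6.67 to 11.7 CPM in T41B and 1.73 to 3.45 CPM in WT mice (1.65, SE 0.33, adjusted p = 0.0019). Slfn8 was at 3.41 to 4.13 CPM against 0.945 to 1.51 CPM (1.58, SE 0.42, adjusted p = 0.0202), and Slfn9 at 1.32 to 3 CPM against 0.453 to 0.866 CPM (1.83, SE 0.52, adjusted p = 0.0313). Again none of the 3 overlapped, with the share of all genes not counted. The calls of Slfn8 and Slfn9 were lost with batch as a covariate (adjusted p = 0.0607 and 0.0841), without Mouse1565 (0.174 and 0.214), without Mouse1571 (0.0512 and 0.105) and without Mouse1590 (0.0724 and 0.0656). They were also lost with only the first library of each same-label pair (0.0576 and 0.0502), and in each of these cases Slfn2 alone was called. Slfn9 was also lost without Mouse1564 (0.0669). Slfn5 was at 5.36 to 6.02 CPM against 4.06 to 5.48 CPM (0.27, SE 0.50, adjusted p = 0.811). Its 95% interval ran from -0.75 to 1.29.

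In stimulated VEH slices Slfn5 was at 95.4, 134, 80.6 and 56.6 CPM in T41B and at 7.5 to 24.1 CPM in WT mice, without overlap (2.39, SE 0.43). With BD10-2 the T41B values of 15.5 to 181 CPM overlapped the WT values of 14.9 to 22.1 CPM through Mouse1592 (2.54, SE 0.47, adjusted p = 0.000327), and without it the difference was 2.83. The change of the Slfn5 genotype difference with stimulation was not called with all mice (edgeR interaction, adjusted p = 0.516 with BD10-2, and 0.521 under vehicle, given as a description). Slfn8 was at 41.2 to 71.1 CPM against 12.1 to 15 CPM under vehicle (2.06, SE 0.30) and at 19.6 to 101 CPM against 13.1 to 16.3 CPM with BD10-2 (2.25, SE 0.32, adjusted p = 1.65e-05). Slfn9 was higher by a log2 of 1.96 (SE 0.35) and 2.25 (SE 0.38), and with BD10-2 its groups overlapped, as Mouse1592 was at 7.51 CPM and the highest WT value was 8.62 CPM. Slfn2 was higher by 1.44 (SE 0.27) and 1.56 (SE 0.29). Without Mouse1592 the BD10-2 differences were 2.49 for Slfn8, 2.52 for Slfn9 and 1.73 for Slfn2. For Slfn2 the VEH values were 47.4, 68, 49.1 and 41.1 CPM in T41B mice, above the 15.8 to 21.8 CPM of WT mice.

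Slfn1 was detected mainly in stimulated T41B slices. It was at 0.773, 1.08, 0.55 and 0.39 CPM in T41B VEH slices, 52 counts in all, against 1 count in WT VEH slices (ratio 56.3, counting interval 9.66 to 2260), a description. With BD10-2 it was at 0.177 to 1.38 CPM against 0.062 to 0.0886 CPM, without overlap. The filter kept Slfn1 through these T41B slices, and with only the 2 vehicle groups in the fit it was not kept. Slfn3 was not called with BD10-2 (0.91, SE 0.54, adjusted p = 0.329, and 1.21 with adjusted p = 0.109 without Mouse1592), and its vehicle difference was 1.56 (SE 0.53), with overlap. For Slfn4 the vehicle difference was 3.17 (SE 0.75), and with BD10-2 it was 2.69 (SE 0.80, adjusted p = 0.026). The groups overlapped in both, and the BD10-2 call was lost without Mouse1564, Mouse1565, Mouse1571 or Mouse1586 (0.102, 0.16, 0.0755 and 0.0957), with DESeq2 (0.123) and with only the 2 groups in the fit (0.144). Without Mouse1592 the BD10-2 difference was 3.04 (adjusted p = 0.000248), a description of the group without its lowest sample.

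**Figure D3:**
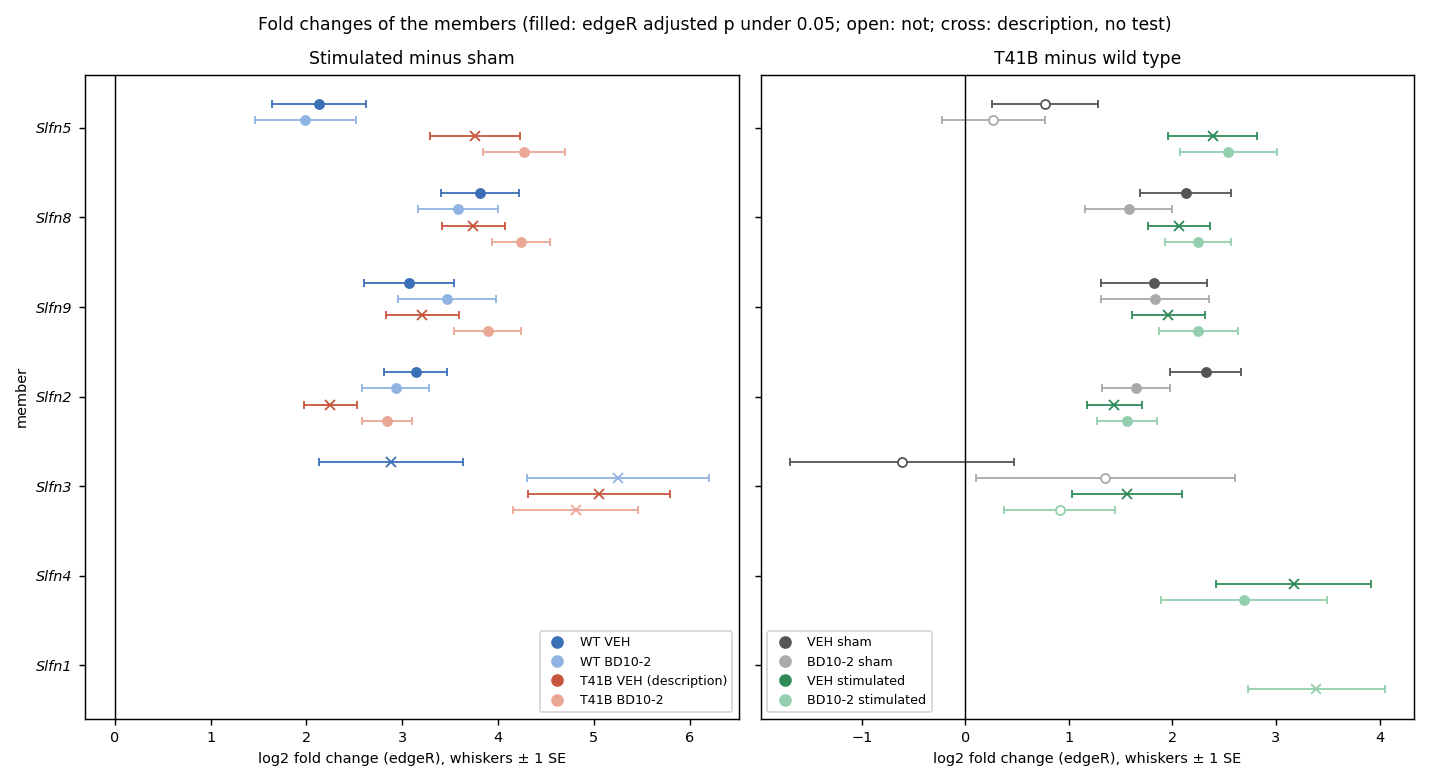
Log2 fold change with 1 SE (horizontal axes) of each member (vertical axis) for stimulated minus sham slices (left) and T41B minus WT (right), filled where the adjusted p was under 0.05 and drawn as a cross where the value is a description with no test; comparisons in which a group held 3 counts or fewer are left out. For genotype, Slfn5 lies at 0.77 and 0.27 in sham and at 2.39 and 2.54 in stimulated slices, and Slfn8 and Slfn9 lie at 1.58 to 2.25 in all 4 comparisons.

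Interaction terms asked whether the response to stimulation differed between genotypes. The vehicle term uses the T41B slices that chose the family, so its values are a description. EdgeR called 0 of 7 members and 0% of all genes under vehicle, with 1683 genes at an unadjusted p under 0.05 and 1 gene called by DESeq2. With BD10-2, 0 of 7 members and 0% of genes were called, with 846 genes at an unadjusted p under 0.05 and 19 called by DESeq2. Slfn5 had the largest interaction estimate among the members measured in every library, 1.62 (SE 0.66, unadjusted p = 0.0202, adjusted p = 0.521) under vehicle and 2.28 (SE 0.66, unadjusted p = 0.00175, adjusted p = 0.516) with BD10-2. Without Mouse1592 the latter was 2.58 and passed the threshold (adjusted p = 0.0112). This is a description, since the mouse was singled out as the lowest of its group for every member. The terms of Slfn8 and Slfn9 were then 0.96 and 0.74 where they had been 0.66 and 0.42. For Slfn2 the vehicle term, again a description, was -0.88 (SE 0.43, unadjusted p = 0.0495, adjusted p = 0.577). For Slfn8 it was -0.07 (95% interval -1.09 to 0.96) and for Slfn9 0.14 (-1.25 to 1.52), which do not show that the responses were alike. The terms of Slfn1, Slfn3 and Slfn4 rest on few sham counts, with SE of 1.2 or more, and are not read.

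BD10-2 was compared with vehicle within each genotype and slice type. EdgeR called 0 of 7 members and 0% of genes in each of the 4 comparisons and 0 of 7 and 0% for the treatment-by-stimulation term in T41B mice. No member reached an unadjusted p under 0.05 in any of them with all mice, but Slfn8 and Slfn9 did in stimulated T41B slices and for the term without Mouse1592. Of all genes, 374 did in WT sham, 1093 in WT stimulated, 431 in T41B sham and 759 in T41B stimulated slices and 526 for the term, and DESeq2 called 0, 23, 0, 0 and 1. In stimulated T41B slices, where the vehicle samples are those that chose the family, the log2 differences are a description, as are the treatment-by-stimulation terms. They ran from -0.19 to 0.47 over the members, at 0.28 for Slfn2, 0.26 for Slfn5, 0.3 for Slfn8 and 0.47 for Slfn9. Without Mouse1592 they were 0.44 for Slfn2, 0.54 for Slfn5, 0.54 for Slfn8 and 0.73 for Slfn9. The treatment-by-stimulation terms of the same 4 genes were then 0.69, 0.8, 0.79 and 0.99, where they had been 0.59, 0.51, 0.5 and 0.69. No member was called in either comparison without that mouse. Since no batch of the labels holds both treatments, batch and treatment cannot be told apart.

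General markers shared by microglia and macrophages moved with genotype. Those of border-associated macrophages summed to 1.54 to 4.62 CPM in T41B and 1.73 to 6.98 CPM in WT VEH sham slices, and 0 of 5 tested were called there. The 12 general myeloid markers were all higher in T41B sham slices under both treatments, and their sum was 543 to 1180 CPM in T41B VEH against 198 to 278 CPM in WT VEH sham slices. As a share of that sum, Slfn2 was 1.28 ± 0.21% (SD, n = 4) in T41B VEH and 0.95 ± 0.476% in WT VEH sham slices, and Slfn8 was 0.509 ± 0.157% and 0.425 ± 0.227%, differences within the spread. Slfn9 was 0.292 ± 0.0618% and 0.328 ± 0.24%. The share of Slfn5 was lower in T41B mice, 0.848 ± 0.381% against 1.77 ± 0.43%, and with BD10-2 it was 0.695 ± 0.0999% against 1.9 ± 0.126%, without overlap in either case. Lymphocyte markers were low. In VEH sham slices those of B cells summed to 13.3 to 42.2 CPM in T41B and 5.16 to 13.7 CPM in WT mice, with 1 of 3 tested called higher. Those of T and natural killer cells summed to 2.25 to 5.58 CPM and 1.19 to 2.19 CPM, with 0 of 4 called. The part of cell number in the genotype results was not tested.

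The myeloid sum differed less with stimulation, at 162 to 252 CPM in WT VEH stimulated and 475 to 748 CPM in T41B VEH stimulated slices, with 1 of 12 markers higher and 4 lower in WT VEH mice. The Slfn2 share of it was 10.2 ± 1.78% in WT VEH and 8.79 ± 1.17% in T41B VEH stimulated slices, and with BD10-2 it was 10.1 ± 0.674% in WT and 7.38 ± 1.54% in T41B stimulated slices, without overlap. The Slfn5 share was 9.91 ± 4.93% and 15.6 ± 4.43% in the same groups. With BD10-2 it was 8.95 ± 1.18% in WT and 12.4 ± 6.21% in T41B stimulated slices, and the T41B values of 2.23 to 17.4% spanned the WT values of 7.62 to 9.87%. Homeostatic microglial markers, those of resting cells, fell together: 8, 8 and 9 of 10 were lower after stimulation in WT VEH, WT BD10-2 and T41B BD10-2 mice, the last 7 of 10 without Mouse1592. In WT VEH mice the choroid plexus sum separated Mouse1509 and Mouse1513 (1220 and 1000 CPM) from Mouse1522 and Mouse1524 (21.7 and 14.4 CPM), and the members differed in whether they separated the same mice. Slfn3 was at 3.06 and 1.49 CPM in the first pair and at 0.951 and 0.0615 CPM in the other, and Slfn5 was at 24.1 and 18.8 CPM against 18.9 and 7.5 CPM. Slfn4 was at 2.08 and 0.551 CPM against 0.951 and 0.0615 CPM. Slfn2 ran from 15.8 to 21.8 CPM, Slfn8 from 12.1 to 15 CPM and Slfn9 from 5.1 to 6.74 CPM over all 4, with the highest value of each in the pair with low sums. The pair with high sums was of batch E, and Mouse1522 and Mouse1524 were of batches A and C, so choroid plexus and batch cannot be told apart here. The part of either in these results was not tested.

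**Figure D4:**
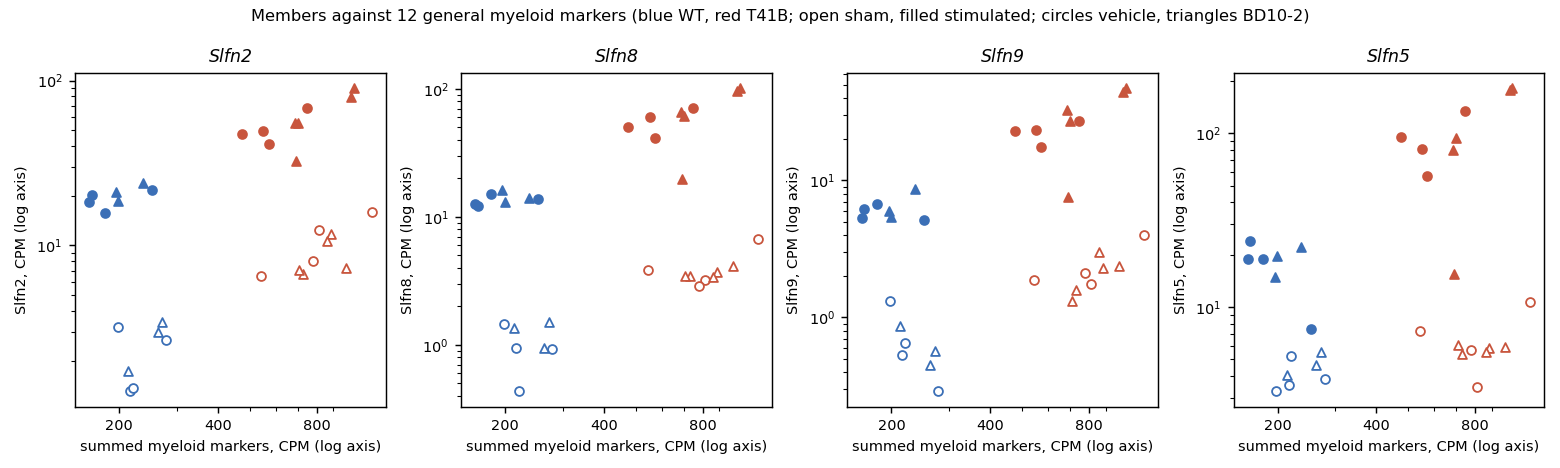
Level of 4 members in CPM (vertical log axes) against the sum of 12 general myeloid markers in CPM (horizontal log axes) in the 32 samples; blue is WT and red T41B, open sham and filled stimulated, circles vehicle and triangles BD10-2. Stimulated samples lie above sham samples at a similar myeloid sum. Sham Slfn5 is at 3.27 CPM in the sample with the lowest myeloid sum (198 CPM) and at 10.7 CPM in that with the highest (1180 CPM). Between them it follows the sum less closely, at 5.48 CPM for a sum of 271 CPM, 3.45 CPM for 814 CPM and 5.88 CPM for 987 CPM.

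Genes of the interferon and Toll-like receptor pathways were read from lists. Of 30 interferon-stimulated genes, 27 were higher in stimulated WT VEH slices, 27 in WT BD10-2 and 30 in T41B BD10-2 slices, and none was lower. Their median log2 fold change was 3.12, 3.05 and 3.79, the last 4.21 without Mouse1592. Parp14, an ADP-ribosyltransferase of this response, rose by a log2 of 4.54 (SE 0.38, adjusted p = 1.2e-09) in WT VEH slices, to 89.7 CPM. Ifnb1 was at 2.66 against 0.0472 CPM in the same slices, and Irf7, which drives interferon transcription, rose to 13.4 against 1.46 CPM (3.17, SE 0.54, adjusted p = 0.000115). Of 11 genes of interferon signalling, 6, 6 and 8 were higher in WT VEH, WT BD10-2 and T41B BD10-2 slices.

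In T41B sham slices, 21 of 30 interferon-stimulated genes were higher than in WT under vehicle and 12 of 30 under BD10-2, and in stimulated slices 29 and 30 of 30. Of 20 genes of the Toll-like receptor and NF-kappaB response, 16, 16 and 18 rose on stimulation in WT VEH, WT BD10-2 and T41B BD10-2 mice. In T41B mice 16 and 15 were higher in sham and 17 and 17 in stimulated slices. Tlr2, the receptor of lipoproteins, was at 34.6 CPM in T41B and 4.17 CPM in WT VEH sham slices (3.05, SE 0.29, adjusted p = 8.38e-08). Of 6 tested genes that cut or protect transfer RNA, 1 was higher and 1 lower in WT VEH, 0 and 1 in WT BD10-2 and 3 and 1 in T41B BD10-2 slices after stimulation, with median log2 fold changes of 0.1, -0.1 and 0.1. The lower gene was the ribonuclease gene Rnase4 in each, and Rnh1, the inhibitor of angiogenin, was among the higher ones in WT VEH and T41B BD10-2 slices. The lists were made with earlier results of these data known and many of their genes are expressed by the same myeloid cells.

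The genes most like each member across the 32 samples, by Pearson's r of log2(CPM + 0.5) among 16186 genes, are given as a description, since all genes share the same libraries and groups. Slfn8 was most like Trim25, Ifih1 and Parp14, Slfn9 most like Ifih1, Trim25 and Ddx58, and Slfn2 most like Lcp2, Ccl3 and Cxcl10, all with r of 0.99. Slfn5 was most like Ifit2, Stat2 and Herc6 (0.98 each). Slfn3 was most like Gbp4 (0.98), Tnfsf10 (0.97) and Fnbp4 (0.96). Slfn4, at 0 or 1 count in 18 of the 32 samples, was most like Ndst2, Tut7 and Tnfsf10 (0.97 each), and with group means subtracted most like Samhd1 (0.94, and 0.83 without Mouse1592). After group means were subtracted, Slfn2 was most like the chemokine genes Ccl3 (0.92), Cxcl16 (0.91) and Ccl4 (0.9), and these were 0.92, 0.91 and 0.92 without Mouse1592. Slfn5 was then most like Phf11d (0.94, and 0.86 without Mouse1592), Slfn9 most like Ifi204 (0.92 and 0.83) and Slfn8 most like Dtx3l (0.91 and 0.78). Slfn3 was most like 9930111J21Rik2 (0.93 and 0.9).

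Among the members, several of these values rested in part on Mouse1592. With group means subtracted, Slfn3 with Slfn5 was at 0.86 (0.78 without that mouse). Slfn8 with Slfn9, the pair that shares reads, was at 0.85 (0.64), and Slfn5 with Slfn8 went from 0.75 to 0.4. Slfn2 with Slfn5 was at 0.47 (0.23), and Slfn2 with Slfn8 at 0.68 (0.6). Slfn3 with Slfn8 went from 0.54 to 0.16, Slfn3 with Slfn9 from 0.58 to 0.24 and Slfn2 with Slfn3 from 0.41 to 0.18. Slfn1 and Slfn4 held 0 or 1 count in 20 and 18 of 32 samples, so their values with other members are not read. Outside the 7, Slfn14 held at most 3 counts in any sample, and the distant relative Slfnl1 stayed between 0.0909 and 0.942 CPM and was called in none of the stimulation comparisons.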

How the data were processed

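RNA of mouse hippocampal slices was sequenced after ribosomal depletion with a stranded kit from 200 ng of total RNA, per the labels' protocols. The authors deposited RSEM expected counts per gene, unscaled estimates that need not be whole (5.69% of cells hold decimals). The submitters' processing notes name the builds GRCm38.p6 and mm10 and the tools cutadapt 1.8.1, STAR 2.7.6a, RSEM 1.3.1, featureCounts 1.6 and SAMtools 1.11. Their roles, the strand setting and the annotation release are not given in the sources used here. Symbols matched 55154 of 55421 identifiers. Coordinates, lengths and shared runs are from GENCODE M21 (GRCm38), and promoters from RefSeq (GRCm38.p6).

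Groups, mice and batches came from the labels. Libraries with the same mouse and condition were summed, giving 8 groups (3 to 5 mice each) and 32 samples. Counts were rounded, filtered (filterByExpr, minimum count 10), scaled by TMM (factors 0.91 to 1.063) and tested with edgeR 4.0.16's quasi-likelihood F test (R 4.3.3), 1 coefficient per group. P-values were adjusted by Benjamini-Hochberg over 19478 genes, with calls under 0.05. CPM uses TMM-scaled library sizes. Group ratios with 1 to 3 counts carry 95% counting intervals, and 3 counts is the floor for a group at 0. Members and lists were chosen with earlier results of these data known. The slices pair by the mouse number in the labels: deviations from group means correlated at 0.26 on average within a mouse (14 pairs, 92.9% over 0.1) and at -0.07 between mice (52 pairs). Named genes were all members, up to 3 per list by the smallest p, and the 3 most alike per member averaging at least 0.5 CPM, among genes averaging at least 1 CPM. Alternatives were DESeq2 1.42.0, RLE scaling, no filter, the mouse as a block, batch as a covariate, only the groups compared, 1 library per same-label pair, CPM by raw total and leaving out each mouse. Leaving out the first stimulated library of Mouse1592, and the likeness of genes without that mouse, were added after seeing the data. The choice to print member values without Mouse1592 was also made after its member values were seen. The fit was tested on simulated data.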

Additional observations from a re-analysis of the deposited data

Results flagged for a closer look

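Of 35 combinations of member and group with 4 or 5 mice and over 3 counts, 1 held a sample far from the rest, and chance flags about 5% of such groups. Slfn9 was at 4 CPM in the T41B VEH sham slice of Mouse1551, whose gap to the other 3 (1.75 to 2.1 CPM) was 0.844 of the range of the group. The same slice had the highest Slfn2 and Slfn8 of its group (15.9 and 6.71 CPM) and the highest sum of interferon-stimulated genes (533 CPM, against 255 to 284 CPM) and of the 12 general myeloid markers (1180 CPM, against 543 to 814 CPM). As a share of the myeloid sum, Slfn9 ran from 0.215% to 0.346% over the 4 slices, with this slice inside that range. Without Mouse1551 the T41B minus WT difference of Slfn9 in VEH sham slices was 1.46 in log2 and no longer called (edgeR adjusted p = 0.171).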

How the results depend on the processing

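Counts of members called, out of 7, were recomputed under each alternative, and no alternative called a member lower. For stimulation these counts include Slfn1, Slfn3 and Slfn4, which the filter kept through stimulated slices and whose calls are not read as tests. For genotype in stimulated slices they include Slfn1, which the filter kept through T41B slices alone. Counts of comparisons that use the stimulated T41B VEH slices, which chose the family, are a description from which nothing is read. Of the 4 members measured in every sample, 4 were called under every alternative in WT VEH and T41B BD10-2 mice, and 3 to 4 in WT BD10-2 mice, where Slfn5 was lost without Mouse1565, Mouse1571 or Mouse1590. For genotype in BD10-2 stimulated slices 4 of 4 were called under every alternative. With batch as a covariate, 1 member (Slfn2) was called higher in T41B sham slices under vehicle, against 3, and 1 (Slfn2) under BD10-2, against 3. With only the first library of each same-label pair, 1 was called under BD10-2. Leaving out each mouse gave 4 to 5 members in WT VEH for stimulation, 7 to 7 in T41B VEH, 4 to 6 in WT BD10-2 and 7 to 7 in T41B BD10-2. For genotype it gave 2 to 3 in VEH sham, 5 to 7 in VEH stimulated, 1 to 3 in BD10-2 sham and 5 to 6 in BD10-2 stimulated slices. It gave 0 to 0 for each treatment comparison, for the treatment-by-stimulation term and for the VEH interaction, and 0 to 1 for the BD10-2 interaction, where the 1 was Slfn5 without Mouse1592. The fit with the mouse as a replicate block gave 6, 7, 6 and 7 members for stimulation and 0, 0 and 0 for the interactions, the same counts as without it. In that paired fit the Slfn2 interaction under BD10-2 was 0.03 where it was -0.09 without the block, and leaving out each mouse moved it from -0.25 (without Mouse1565) to 0.15 (without Mouse1590), with 0.03 without Mouse1592. Fitting only the 2 groups compared left 4 members called in WT VEH and 5 in T41B BD10-2 for stimulation, because Slfn3 and Slfn4, or Slfn1 and Slfn4, were not kept by the filter there. CPM by the raw total changed the group means by less than their spread. Without the filter on low counts, with RLE scaling and without the first stimulated library of Mouse1592, no member call was lost or gained. Over 49 values of single members with more than 3 counts in both groups, or of Slfn2 and Slfn5 for the interactions, 652 of 690 alternatives kept direction and side of the threshold, 31 lost the call, 4 gained one and 3 changed sign. Over all members and comparisons 44 calls were lost, 6 of them because the filter did not keep the gene, and 4 were gained. The causes were not tested. Depth limits Slfn1, Slfn3 and Slfn4 in sham slices, which held at most 5 counts per sample.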
